A study of Mus musculus with 2 samples.

Results

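Marrow stromal cells and osteoblasts were picked out of the fracture callus by their transcripts. They made up 65 of the 3295 callus cells that passed the filters, and of 5859 deposited cells in the whole series. Members had at least 500 detected genes, at most 10% mitochondrial unique molecular identifiers (UMIs), at most 1 UMI of *Ptprc* (the leukocyte antigen CD45), no UMI of *Clec3b* and at least 3 UMIs of the type I collagen genes *Col1a1* and *Col1a2*. Of these cells, 23 gave at least 0.5% of their UMIs to the osteocalcin genes *Bglap* and *Bglap2* and are called osteoblasts. Another 42 carried at least 2 of the 4 genes *Lepr*, *Cxcl12*, *Adipoq* and *Kitl* and are called marrow stromal cells. Cells that met both conditions were called osteoblasts, which was so for 3 of the 23. The members were thus chosen by their measured UMIs, so the levels of the 10 rule genes, and every gene compared between the 2 groups, are given as a description.

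The cells came from mice of the genotype Clec3b.creERT2; Ai14.R26.tdTomato, in which the *Clec3b* gene drives a tamoxifen-activated Cre that switches on the red protein tdTomato for good in the cell and its descendants. Tamoxifen was given 2 weeks before a stabilized femoral fracture at 6 weeks of age, and 3 weeks after surgery calluses and intact diaphyses with their muscle were taken from 3 littermates, pooled by limb, digested with collagenase and sorted for tdTomato. Each pool gave 1 library on the 10× Chromium 3′ platform. The tdTomato transcript was not analysed here, so whether each member carried the label was not checked, and the sorted callus library also held 655 cells of the B lineage. There are therefore no biological replicates, and no test between cells or conditions is given. The mice are labelled male, but *Xist*, the RNA of the inactive X chromosome, was found in 19 of 23 osteoblasts and 34 of 42 marrow stromal cells, including all 18 and all 30 of those with at least 5000 UMIs. The 4 Y-linked genes counted had 0 UMIs in both groups.

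In bone marrow, stromal cells that wrap the sinusoids secrete CXCL12 and stem cell factor (the product of *Kitl*), which hold and feed blood stem cells, and they also carry the leptin receptor and adiponectin. Osteoblasts line the bone surface, lay down type I collagen and the proteins that bind its mineral, and osteocalcin marks their mature stage. Both are placed in the same lineage, with the marrow stromal cell able to give rise to osteoblasts and to fat cells.

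The osteoblasts were 0.698% of the filtered callus cells (exact Clopper-Pearson 95% interval 0.443 to 1.05%) and the marrow stromal cells 1.27% (0.920 to 1.72%). By the same rule the intact library held 1 member among 1207 filtered cells, or 0.0829% (0.00210 to 0.461%), against 1.97% (1.53 to 2.51%) of the callus cells. The intact cell was an osteoblast of 28004 UMIs with 3393 UMIs of *Bglap*, 100 of *Ibsp*, 15 of *Ifitm5* and none of *Cxcl12*, and no intact cell met the marrow stromal rule. These and all later intervals cover counting error only. The spread between mice, and between cells, is outside them. The shares also depend on the sort and on how well collagenase frees each type of cell, so they are shares of sorted cells.

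The groups differed in depth. The osteoblasts held 548391 UMIs in all and ranged from 1604 to 46980 UMIs per cell with a median of 25699, whereas the marrow stromal cells held 346570 and ranged from 1559 to 34466 with a median of 7432.5. Of the osteoblasts, 18 had at least 15890 UMIs and 5 had at most 3295, with none between. The 3 osteoblasts nearest to the limit gave 0.561%, 0.781% and 1.38% of their UMIs to *Bglap* and *Bglap2*, and the nearest cells outside it gave 0.318%, 0.317% and 0.192%. One of the 3 was the shallowest, with 140 UMIs of *Col1a1*, 3 of *Sparc* and 5.92% mitochondrial UMIs. Of the 42 marrow stromal cells, 34 carried all 4 of their rule genes, 5 carried 3 and 3 carried 2. Among 18 other collagen-bearing callus cells without *Clec3b*, 8 carried 1 of them and 10 none. A group of 210 collagen-bearing callus fibroblasts with at least 1 *Clec3b* UMI had a median of 7850.5 UMIs and is used below for comparison. No limit was set in this group on *Lepr*, *Cxcl12*, *Adipoq* or *Kitl*. Cells like the marrow stromal cells but with *Clec3b* can therefore be among the 210. *Adipoq* was in 3 of them, all 133 *Mmp13* UMIs were in 2 and all 88 *Ibsp* UMIs were in 2.

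Of the 5 markers given for these cells, *Bglap*, *Cxcl12* and *Adipoq* are rule genes, and *Ifitm5* and *Ibsp* are not. The split of *Bglap* between the groups was fixed by the selection. That of *Cxcl12* and *Adipoq* was shaped by it, though the rule set no limit on them in osteoblasts. *Bglap* was in all 23 osteoblasts and 9 of 42 marrow stromal cells, and *Ifitm5*, a membrane protein of mineralizing osteoblasts, in 19 and 2. *Cxcl12* was in 4 osteoblasts and all 42 marrow stromal cells, and *Adipoq* in none and 38. *Ibsp*, which encodes the mineral-binding bone sialoprotein, was in all 23 osteoblasts and also in 34 of the 42 marrow stromal cells, against 2 of 210 fibroblasts, so it did not separate the 2 groups.

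For the comparison across genes, UMIs were summed over the cells of each group and scaled to counts per 1000000 UMIs (CPM). A gene was called when the ratio of CPM, with 10 CPM added to both, was at least 2-fold, among 5288 genes with at least 20 UMIs over both groups. By this measure 250 genes (4.73%) were higher in the osteoblasts and 1883 (35.6%) in the marrow stromal cells, together 40.3% of the genes. The median log2 ratio of osteoblasts over marrow stromal cells was −0.70. This offset lies partly in the denominator, since *Col1a1*, *Col1a2*, *Bglap* and *Bglap2* took 32.8% of the osteoblasts' UMIs and 0.675% of the marrow stromal cells'. With those 4 genes left out of the total, 472 genes were higher in the osteoblasts and 1040 in the marrow stromal cells, which moved the osteoblasts' share of the calls from 11.7% to 31.2% and the median to −0.24, a shift of 0.45. Counts for gene groups are given below on the first scale and are to be read against that median and against the 4.73% and 35.6% of all genes. After every cell was thinned to 3000 UMIs, the median number of genes was 1024 in 19 osteoblasts, below every one of the 40 marrow stromal cells, which had a median of 1644.5 and a lowest value of 1254. The 186 fibroblasts had a median of 1490.

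**Figure D1:**
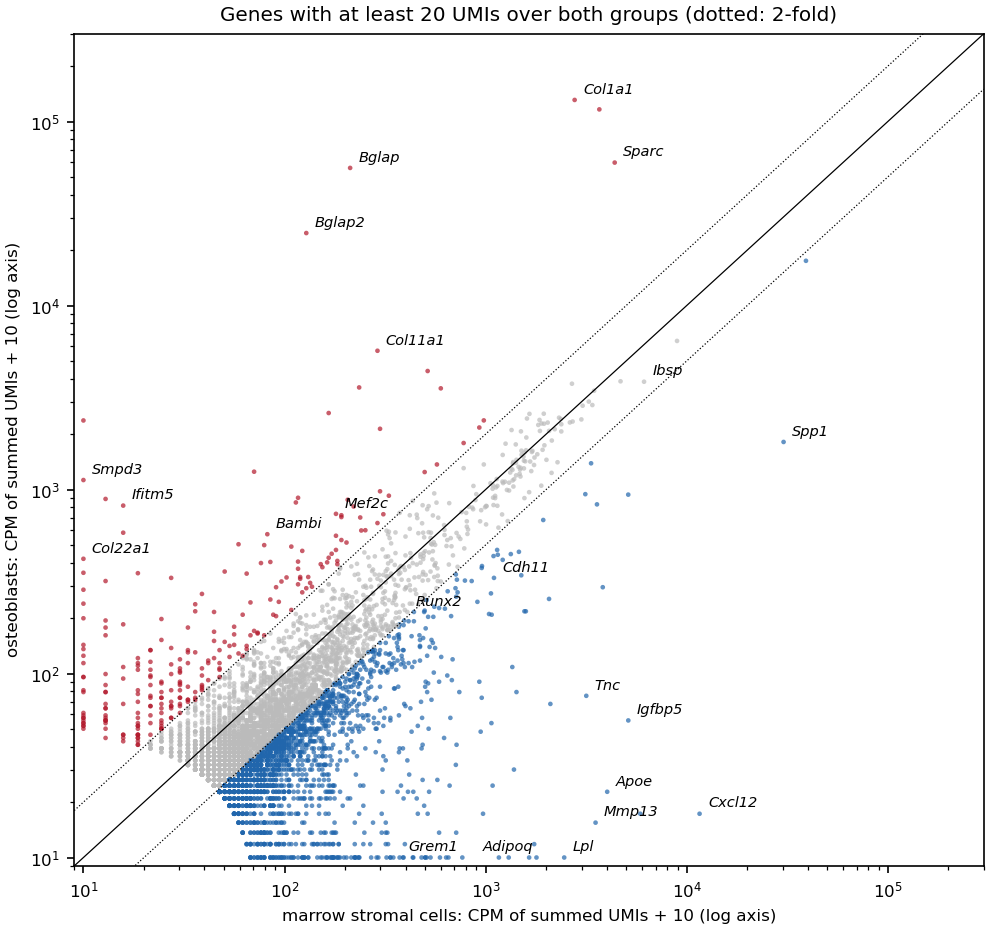
CPM of the summed UMIs of 42 marrow stromal cells (x axis) and 23 osteoblasts (y axis), with 10 added and on log axes, for 5288 genes. Red genes were at least 2-fold higher in osteoblasts (250), blue genes at least 2-fold higher in marrow stromal cells (1883) and grey genes lay within 2-fold; *Bglap*, *Col1a1* and *Smpd3* lie far above the dotted lines, *Cxcl12*, *Mmp13* and *Lpl* far below them, and *Ibsp* between them.

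Osteocalcin led the osteoblasts, by the rule. *Bglap* (chr3:88383501-88384464, minus strand, GRCm38) had 55955 CPM in the osteoblasts and 202 in the marrow stromal cells, a 277-fold difference (exact Poisson interval 219 to 355). Per 10000 UMIs of a cell, *Bglap* and *Bglap2* together ran from 56.1 through a median of 602 to 1818 in the osteoblasts and from 0 through 0 to 19.2 in the marrow stromal cells, so the rule's groups were far apart but the osteoblasts themselves spanned a wide range. The transcripts of *Bglap* and *Bglap2* are identical at 434 of 440 aligned bases (98.6%) and those of *Bglap* and *Bglap3* at 96.4%, so how reads were divided among the 3 neighbouring copies is uncertain. *Bglap3*, which the rule did not use, had 879 CPM against 2.89, the latter from 1 UMI.

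RUNX2, the factor that commits cells to bone, is known to bind the word ACCACA, and the osteocalcin gene is its best studied target. The 250 bases before the transcription start in RefSeq (GRCm38.p6, 5′ to 3′ on the gene's strand) are shown for *Bglap*, the leading osteoblast gene, and for *Mmp13* and *Cxcl12*, both leading marrow stromal genes, with ACCACA in capitals:
Bglap, chr3:88384467-88384716, minus strand: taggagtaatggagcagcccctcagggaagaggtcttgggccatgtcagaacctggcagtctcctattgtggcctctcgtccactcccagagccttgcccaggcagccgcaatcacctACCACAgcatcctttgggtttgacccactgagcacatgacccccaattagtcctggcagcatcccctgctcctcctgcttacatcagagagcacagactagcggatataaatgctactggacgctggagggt
Mmp13, chr9:7272264-7272513, plus strand: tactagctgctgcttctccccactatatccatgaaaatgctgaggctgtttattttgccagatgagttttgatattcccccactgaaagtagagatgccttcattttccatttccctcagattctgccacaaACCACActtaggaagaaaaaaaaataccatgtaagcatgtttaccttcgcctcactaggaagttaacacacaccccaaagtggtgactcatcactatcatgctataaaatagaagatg
Cxcl12, chr6:117168285-117168534, plus strand: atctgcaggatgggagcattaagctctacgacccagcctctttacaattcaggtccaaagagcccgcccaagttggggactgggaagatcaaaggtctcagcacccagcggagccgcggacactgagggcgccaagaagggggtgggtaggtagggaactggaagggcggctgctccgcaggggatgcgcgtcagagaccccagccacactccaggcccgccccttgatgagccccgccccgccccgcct
The word, searched on both strands, lies 132 to 127 bases before the start of *Bglap* and 118 to 113 bases before that of *Mmp13*, and is not in the *Cxcl12* window. It is in 14.0% of 32851 such windows. Among the 12 leading genes of each group described below, it was in 1 of 8 genes with a window on the osteoblast side (*Bglap*) and in 2 of 10 on the marrow stromal side (*Mmp13* and *Col8a1*). These genes had 12 and 13 windows, and the 14.0% is a share of windows rather than of genes. A match is only a match of letters.

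Most of the other genes that led the osteoblasts encode matrix proteins or act in mineralization. *Col1a1* and *Col1a2*, the chains of type I collagen, had 131032 and 116417 CPM in the osteoblasts against 2761 and 3667, differences of 47.5-fold (44.5 to 50.6) and 31.7-fold (30.0 to 33.6) on rule genes. *Sparc*, the collagen- and calcium-binding osteonectin, stood at 59822 against 4374 CPM (13.7-fold, 13.0 to 14.4), and per 10000 UMIs at 18.7, 590 and 742 (lowest, median and highest osteoblast) against 17.6, 41.0 and 98.3. The shallowest osteoblast was the one that fell into the marrow stromal range, with 3 UMIs, and the next lowest stood at 257. *Ifitm5* had 808 CPM against 5.77 (140-fold, 38.5 to 1159, from 2 UMIs in the lower group), and was found after thinning in 73.7% of osteoblasts (exact interval 48.8 to 90.9%), in 0 of 40 marrow stromal cells (2 of 42 before thinning) and in 0 of 186 fibroblasts. At a limit of 3 counts these zeros allow up to 7.50% and 1.61% of cells with a UMI at this depth. *Smpd3*, a sphingomyelinase needed for mineralization, had 1116 CPM against 0 UMIs, at least 129-fold higher, but 270 CPM in the fibroblasts, of which 38.2% (31.2 to 45.6%) carried it after thinning. Osteoblasts and fibroblasts thus both carried it, and it was not found in the marrow stromal cells. *Slc13a5*, a citrate transporter, was at least 31.8-fold higher, with 0 UMIs in the marrow stromal cells and in the fibroblasts. Floors for genes at 0 are taken at 3 counts over the group.

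Other collagen genes split between the groups, and *Col11a2*, *Col11a1*, *Col22a1*, *Col24a1*, *Col13a1*, *Col15a1*, *Col5a2* and *Col5a1* were higher in the osteoblasts. *Col11a2*, a chain of type XI collagen that helps nucleate fibrils, had 2363 CPM against 0 UMIs (at least 273-fold) and 2.27 CPM in the fibroblasts, and it was in all 19 thinned osteoblasts. *Col11a1*, its partner chain, had 5667 against 280 CPM (20.2-fold, 16.5 to 25) and per 10000 UMIs ran from 7.78 through 48.7 to 97.2 in the osteoblasts and from 0 through 0 to 17.1 in the marrow stromal cells, so the lowest osteoblasts lay within the marrow stromal range. One marrow stromal cell, the one rich in *Acan*, held 60.8% of that group's *Col11a1*, and the log2 ratio went from 4.29 to 5.38 without the deepest cell of each group. *Col22a1* was at least 47.4-fold and *Col15a1*, of basement membrane zones, at least 9.90-fold higher, and *Col24a1* and *Col13a1* had 151 and 261 CPM against 2.89 (1 UMI) and 28.8. *Col5a2*, which sets the width of collagen I fibrils, was 6.01-fold higher (5.20 to 6.98) and *Col5a1* 2.41-fold (1.94 to 3.02). The remaining leading genes were *Cgref1* (99.2-fold, 27.2 to 823, from 2 UMIs) and the carboxypeptidase gene *Cpz* (at least 39.6-fold). Other collagen genes were higher in the marrow stromal cells. *Col4a1*, of basement membranes, had 0 UMIs in the osteoblasts and was at least 78.1-fold higher in the marrow stromal cells, *Col6a1* and *Col6a2* were 10.5-fold (7.47 to 15.2) and 9.98-fold (6.57 to 15.7) higher there, and *Col8a1* at least 236-fold. In all 8 of the 17 tested collagen genes were higher in the osteoblasts, against 4.73% of all genes. The other 9 were higher in the marrow stromal cells, against 35.6% of all genes, with none within 2-fold (median −1.11). Without cells carrying 3 markers of another cell type this median turned to 0.22, as did *Col16a1*, 1 of the 9. Here and below these types are endothelial, osteoclast, macrophage, neutrophil, B, T and NK and muscle cells. *Col3a1* was 13.7-fold higher in the marrow stromal cells but 74.7% of its UMIs there came from 1 cell, and with at least 3 niche genes asked for its log2 ratio went from −3.65 to −1.55, and without cells carrying 3 markers of another cell type to −0.65, under the 2-fold limit.

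**Figure D2:**
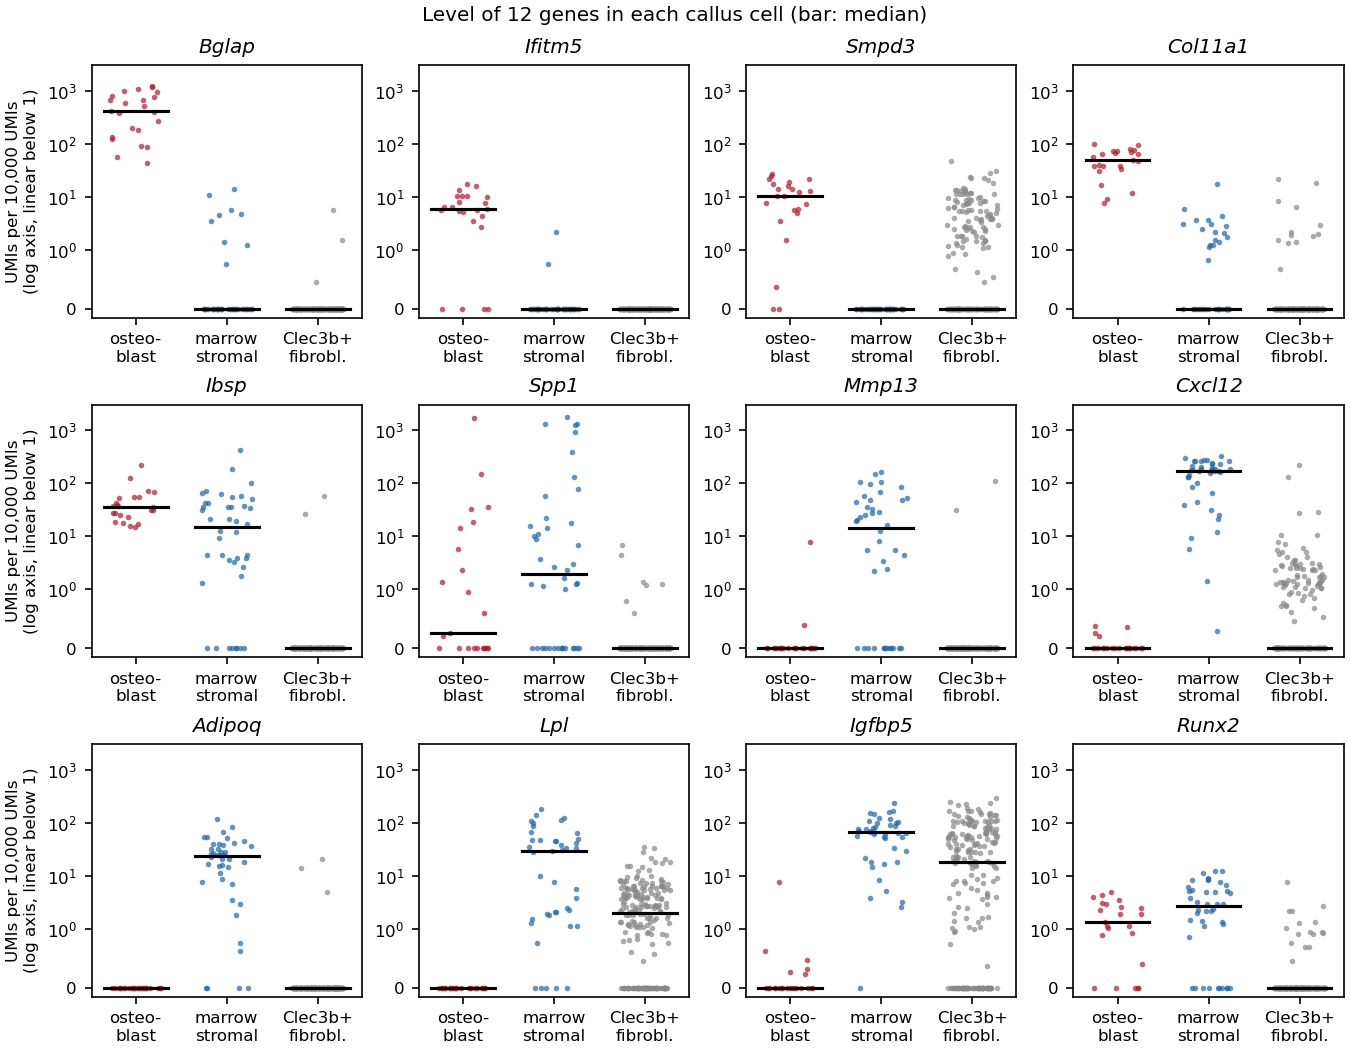
UMIs per 10000 UMIs of 12 genes in each of 23 osteoblasts, 42 marrow stromal cells and 210 *Clec3b*-positive fibroblasts, on a log axis that is linear below 1, with the median as a bar. *Bglap* and *Cxcl12* separate the groups by the rule; *Col11a1* is in every osteoblast, *Ibsp* is spread over both member groups, *Smpd3* is shared by osteoblasts and fibroblasts, and *Lpl* and *Igfbp5* by marrow stromal cells and fibroblasts.

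Of the 21 tested genes for bone matrix and mineralization, 10 were higher in the osteoblasts, 7 in the marrow stromal cells and 4 lay within 2-fold (median −0.28, against −0.70 for all genes, and 0.28 against −0.24 with the 4 rule genes out of the denominator). The list holds 4 rule genes (*Bglap*, *Bglap2*, *Col1a1* and *Col1a2*), and without them 6 of 17 were higher in the osteoblasts and 7 in the marrow stromal cells (median −0.63). The shares of all genes were 4.73% and 35.6%. Over the alternatives tried the median of the 21 ran from −0.34 to 2.72, the highest without the members richest in *Spp1*. *Ibsp* was 1.59-fold higher (1.5 to 1.69) in the summed marrow stromal cells, at 6126 against 3844 CPM, but 1 of those cells held 47.4% of the UMIs. Per 10000 UMIs the osteoblasts had 15.2, 35.6 and 222 and the marrow stromal cells 0, 14.7 and 419 (lowest, median and highest), and the sign of the log2 ratio turned from −0.67 to 0.40 when each cell counted equally and to 0.64 without the members richest in *Spp1*. Thus *Ibsp* was in every osteoblast, while 8 marrow stromal cells had none, and the ranges overlapped, with 1 marrow stromal cell above the highest osteoblast. *Alpl*, the alkaline phosphatase that frees phosphate for mineral, had 522 and 635 CPM and was in 68.4% and 67.5% of the thinned cells of the 2 groups, against 0 of 186 fibroblasts. *Phex*, an endopeptidase of late osteoblasts and osteocytes, was 8.0-fold higher (4.07 to 18) in the osteoblasts. *Dmp1*, a matrix acidic phosphoprotein of osteocytes, was in 12 osteoblasts and 5 marrow stromal cells, with 153 and 242 CPM, 59.5% of the latter from 1 cell, and its log2 ratio turned from −0.63 to 3.46 without the members richest in *Spp1*, to 2.51 without cells carrying 3 markers of another cell type and to 0.68 when each cell counted equally. Among the 7 on the marrow stromal side, *Enpp1*, which makes pyrophosphate, had 0 UMIs in the osteoblasts and 57 in the marrow stromal cells (at least 30.1-fold), and *Mgp*, matrix Gla protein, 0 and 75 (at least 39.6-fold). *Mgp* stood at 216 CPM in the marrow stromal cells, 34.7% of it from 1 cell, and 1141 in the fibroblasts, and its log2 ratio went from −4.50 to −1.70 without cells carrying 3 markers of another cell type. *Ank*, which exports pyrophosphate, was 10.5-fold higher (4.44 to 30.4), and its log2 ratio went from −2.58 to −0.97, under the 2-fold limit, without the members richest in *Spp1*. The cadherin gene *Cdh11* was 3.40-fold higher (2.83 to 4.09) in the marrow stromal cells.

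*Spp1*, the phosphoprotein osteopontin, had 30308 CPM in the summed marrow stromal cells against 1803 in the osteoblasts (16.8-fold, 15.7 to 18). A few cells carried most of it. Per 10000 UMIs its median was 1.96 there with a highest value of 1771, and in the osteoblasts 0.269 with a highest value of 1720, in 1 cell of 2570 UMIs. When the 7 members that gave at least 3% of their UMIs to *Spp1* were left out (6 marrow stromal cells and this osteoblast), the log2 ratio went from −4.06 to −0.30.

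Of 14 tested osteogenic transcription factor genes, 5 were higher in the osteoblasts, 4 in the marrow stromal cells and 5 within 2-fold (median −0.33, or 0.17 with the 4 rule genes out of the denominator). Among all genes 4.73% were higher in the osteoblasts and 35.6% in the marrow stromal cells. Both groups carried the master factors. *Runx2* had 206 CPM in the osteoblasts and 398 in the marrow stromal cells (1.93-fold, 1.5 to 2.50), and *Sp7* (osterix), which acts after *Runx2*, had 177 and 113. After thinning *Runx2* was in 21.1% (6.05 to 45.6%) of osteoblasts and 60% (43.3 to 75.1%) of marrow stromal cells, and *Sp7* in 52.6% (28.9 to 75.6%) and 17.5% (7.34 to 32.8%), so the groups' intervals overlapped for both genes, by little. On the log2 scale *Runx2* went from −0.92 to −1.74 without cells carrying 3 markers of another cell type, past the 2-fold limit, and *Sp7* from 0.61 to 1.15 with the 4 rule genes out of the denominator, past it in the other direction. Both were rare in the fibroblasts, at 4.30% and 0.538%. The osteoblasts had more of *Mef2c* (4.27-fold, 3.25 to 5.72), *Dlx3* (8.22-fold, 2.61 to 41.6, from 3 UMIs in the lower group) and *Tcf7*, a nuclear partner of β-catenin (5.43-fold, 2.16 to 17.6). The marrow stromal cells had more of the sister factors *Runx1* (11.5-fold, 8.35 to 16.1) and *Runx3* (10.4-fold, 4.05 to 34.3), and of the limb mesenchyme factor *Prrx1* (3.28-fold, 2.50 to 4.34). *Runx1* was in 82.5% of thinned marrow stromal cells, 15.8% of osteoblasts and 17.2% of fibroblasts, and the intervals of the first and the others did not overlap. Of the 6 tested osteocyte genes, 4 were higher in the osteoblasts (*Phex*, *Ptprz1*, *Irx5* at a log2 ratio of 1.01, with 51.1% of its osteoblast UMIs in 1 cell and its call lost at 0.20 without cells carrying 3 markers of another cell type, and *Pdpn* in 5 cells) and *Kcnk2*, a stretch-sensitive potassium channel, was 15.4-fold higher (9.30 to 27.0) in the marrow stromal cells.

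All 18 tested marrow niche genes were higher in the marrow stromal cells, with a median of −5.54, or −6.17 with the 9 genes that had no UMI in osteoblasts at their bound. *Cxcl12*, *Lepr* and *Kitl* are rule genes, and the other 15 had a median of −5.44. Of the 15, *Igfbp5*, *Gas6*, *Hp*, *Cxcl14* and *Fbln5* are also among the 12 leading genes of this same comparison. The list was chosen with earlier results of these data known, so its count is a description. *Cxcl12* (chr6:117168535-117181367, plus strand) had 11576 against 7.29 CPM and per 10000 UMIs ran from 0.290 through 169 to 321 in the marrow stromal cells and from 0 through 0 to 0.383 in the osteoblasts, 19 of which had none. Other genes that the rule did not use were also higher in the marrow stromal cells. *Vcam1*, an adhesion molecule for blood cells, *Il7*, the lymphoid growth factor, and *Angpt1* had no UMI in the osteoblasts and were at least 114-fold, 21.1-fold and 40.6-fold higher. Of the transcription factors known to maintain marrow stromal cells, *Ebf3* had 0 UMIs in osteoblasts (at least 77.5-fold), *Ebf1* was 24.4-fold higher (15.7 to 40.0) and *Foxc1* 10.7-fold (6.90 to 17.4). *Ebf1* was common among fibroblasts too (83.3% of thinned cells), whereas *Ebf3* and *Foxc1* were in 9.68% and 6.45% of fibroblasts against 62.5% and 70.0% of marrow stromal cells.

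Other leading genes of the marrow stromal cells follow. Among them *Igfbp5*, *Gas6*, *Cxcl14*, *Fbln5* and *Hp* were already counted with the niche genes above. *Igfbp4*, a carrier that restrains insulin-like growth factors, had 5866 against 7.29 CPM (804-fold, 314 to 2954), *Igfbp5* 5113 against 45.6 (112-fold, 75.7 to 174) and *Apoe*, the lipid carrier, 4014 against 12.8 (314-fold, 152 to 784). A single osteoblast held 80% of that group's *Igfbp5* UMIs. The log2 ratio of *Igfbp5*, −6.53 as reported, ran from −7.90 to −6.05 over the alternatives. *Gas6*, a ligand of TAM receptors, had 1636 CPM and no UMI in the osteoblasts (at least 299-fold), as did the chemokine gene *Cxcl14* (at least 211-fold) and *Fbln5*, an elastic fibre protein (at least 138-fold). *Hp*, haptoglobin, had 1734 against 1.82 CPM, the latter from 1 UMI (951-fold, 170 to 37624). In thinned fibroblasts *Igfbp4* was in 77.4%, *Igfbp5* in 65.1%, *Fbln5* in 41.9%, *Gas6* in 40.3%, *Apoe* in 24.7%, *Col8a1* in 23.1%, *Cxcl14* in 8.60% and *Hp* in 3.23%, so several of these genes were common there too. *Tnc*, tenascin-C, named after its values were seen, was 48.1-fold higher (34.5 to 69.0) and was in 97.5% (86.8 to 99.9%) of thinned marrow stromal cells, 10.5% of osteoblasts and 5.38% of fibroblasts.

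*Mmp13*, a collagenase that opens bone and cartilage matrix, led the marrow stromal cells too. It had 1217 UMIs, or 3512 CPM, in the marrow stromal cells and 3 UMIs in the osteoblasts (642-fold, 219 to 3117). It was in 29 of 42 marrow stromal cells, at 0, 14.4 and 165 per 10000 UMIs (lowest, median and highest), and in 2 osteoblasts, so both groups held cells without it and all the high cells were marrow stromal. In thinned cells it was in 70.0% (53.5 to 83.4%) of marrow stromal cells and 1.08% (0.130 to 3.83%) of fibroblasts.

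Among all genes 35.6% were higher in the marrow stromal cells and 4.73% in the osteoblasts. Of 11 tested adipogenic and lipid genes, 9 were higher in the marrow stromal cells and 1 in the osteoblasts (median −3.27, or −3.85 with 4 genes at their bound). Over the alternatives tried this median ran from −5.05 to −1.71. *Lpl*, lipoprotein lipase, had 2450 CPM and 0 UMIs in the osteoblasts (at least 448-fold), and *Adipoq*, a rule gene, 1780 CPM and 0 (at least 325-fold). *Pparg*, the regulator of fat cells, had 30 UMIs against 0 in 18 cells, and *Cebpa* was 39.0-fold higher (12.8 to 194, from 3 UMIs). *Fabp4*, a fatty acid carrier, was in 5 marrow stromal cells, with 76.1% of its UMIs in 1 of them, and *Plin2*, which coats lipid droplets, in 10. *Scd1*, a fatty acid desaturase, was 8.22-fold higher (3.02 to 31.3) in the osteoblasts.

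**Figure D3:**
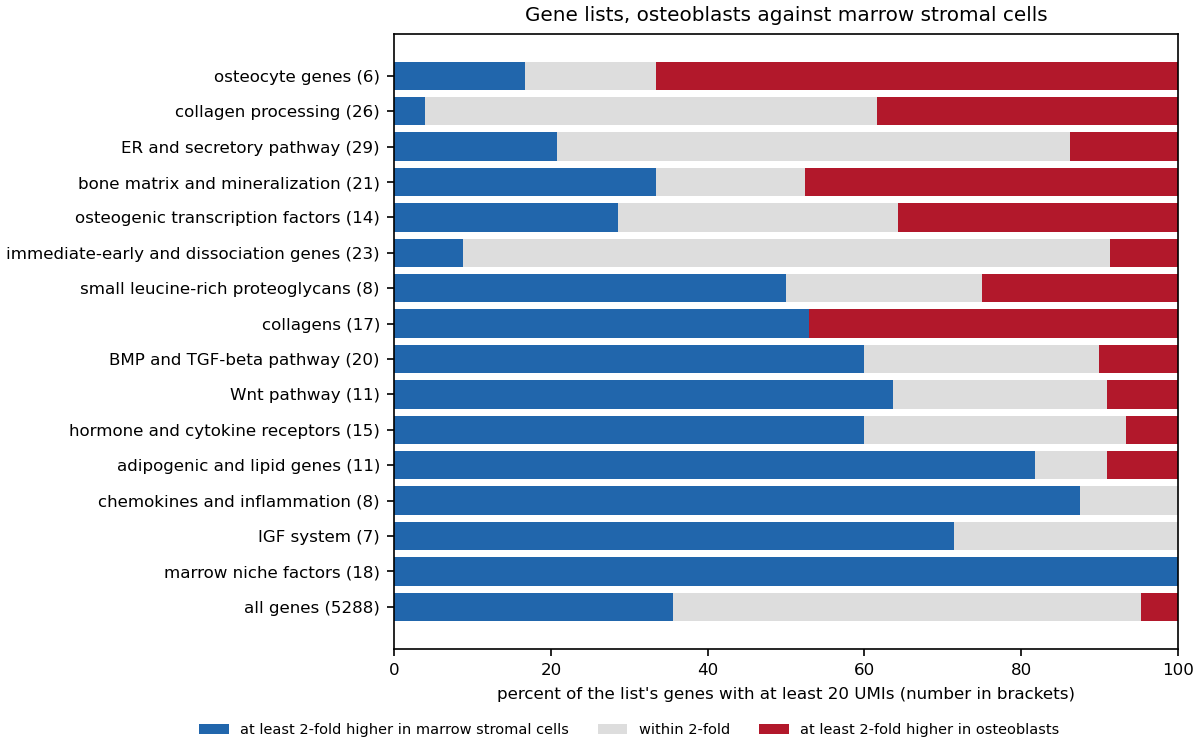
Percent of each gene list at least 2-fold higher in the marrow stromal cells (blue), within 2-fold (grey) or at least 2-fold higher in the osteoblasts (red), among members with at least 20 UMIs over both groups, whose number is in brackets; the lowest bar gives all 5288 genes. All 18 marrow niche genes are blue, of which 3 are rule genes and some others are leading genes of this same comparison. Red are 10 of 26 collagen processing genes and 10 of 21 bone matrix genes, 4 of the latter being rule genes.

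Genes for making and crosslinking collagen were higher in the osteoblasts or within 2-fold, with 1 exception. Of 26 tested collagen processing genes, 10 were higher in the osteoblasts, 1 in the marrow stromal cells and 15 lay within 2-fold (median 0.79). *Serpinh1*, the collagen chaperone HSP47, was 2.44-fold higher (2.16 to 2.76), *Plod2* and *P4ha1*, a lysyl and a prolyl hydroxylase subunit, 3.05-fold (2.39 to 3.93) and 3.52-fold (2.34 to 5.47), and *Creb3l1*, a factor that drives collagen secretion, 6.19-fold (3.85 to 10.5). *Lox*, which crosslinks collagen, was 2.02-fold higher in CPM and fell just short of the call, while its relative *Loxl1* had 1 UMI in the osteoblasts and 107 in the marrow stromal cells. With the 4 rule genes out of the denominator, 16 of the 26 were higher in the osteoblasts. Of 29 tested genes of the endoplasmic reticulum and secretory pathway, 4 were higher in the osteoblasts (*Ssr4*, *Kdelr3*, *Kdelr2* and *Sec24d*) and 6 in the marrow stromal cells (*Pdia6*, *Hspa5*, *Hsp90b1*, *Calr*, *Pdia4* and *Canx*), with 19 within 2-fold (median 0.16). The shares of all genes were 4.73% and 35.6%. The chaperone gene *Hspa5* (BiP) was 4.01-fold higher (3.30 to 4.90) in the marrow stromal cells. With the rule genes out of the denominator these counts were 9 and 2, and *Calr*, *Canx*, *Hsp90b1* and *Pdia4* lost their call.

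Among 8 small leucine-rich proteoglycan genes, 2 were higher in the osteoblasts, 4 in the marrow stromal cells and 2 within 2-fold (median −1.0, which went to 0.57 without the deepest cell of each group, in the marrow stromal cells the one rich in *Acan*). The shares of all genes were 4.73% and 35.6%, with a median of −0.70. *Dcn*, decorin, had 4396 CPM in the osteoblasts, 505 in the marrow stromal cells and 10617 in the fibroblasts, and it was in every thinned osteoblast and fibroblast but 37.5% of the marrow stromal cells. A single cell held 57.1% of the marrow stromal *Dcn*, and the log2 ratio went from 3.10 to 4.09 without the deepest cell of each group. *Ogn*, osteoglycin, had no UMI in osteoblasts and 223 in marrow stromal cells (at least 118-fold).

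Signalling genes were also counted by list, and each count is to be read against the shares of all genes. Of 20 tested BMP and TGF-β pathway genes, 12 were higher in the marrow stromal cells, 2 in the osteoblasts and 6 within 2-fold (median −1.36), against 35.6% and 4.73% of all genes, and with the 4 rule genes out of the denominator these counts were 8 and 3. The BMP antagonists *Grem1* and *Chrdl1* had no UMI in osteoblasts (at least 66.5-fold and 89.7-fold), and *Grem1* was in 55.0% (38.5 to 70.7%) of thinned marrow stromal cells and 1.08% of fibroblasts. *Bambi*, a decoy receptor, was 7.79-fold higher (5.17 to 12.2) and *Bmp3* 3.03-fold (1.72 to 5.70) in the osteoblasts. Of 11 Wnt pathway genes, 7 were higher in the marrow stromal cells, 1 in the osteoblasts and 3 within 2-fold (median −1.68). The 7 included the secreted inhibitors *Wif1* (8.16-fold, 5.91 to 11.5), *Sfrp1* (at least 28-fold) and *Sfrp4* (11.5-fold, 5.45 to 27.8). Of 7 genes of the IGF system, 5 were higher in the marrow stromal cells (median −5.52), *Igf1* itself with no UMI in the osteoblasts (at least 86.0-fold). *Igf1* was shared with fibroblasts, in 67.5% and 61.3% of thinned cells.

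Of 15 hormone and cytokine receptor genes, 9 were higher in the marrow stromal cells, 1 in the osteoblasts and 5 within 2-fold (median −1.97). For this and the next lists, 35.6% of all genes were higher in the marrow stromal cells and 4.73% in the osteoblasts. *Pth1r*, the parathyroid hormone receptor, differed little, at 374 CPM in the osteoblasts and 254 in the marrow stromal cells, against 21.0 in the fibroblasts. *Pdgfrb* was 158-fold higher (43.2 to 1316, from 2 UMIs) in the marrow stromal cells, and the receptors *Fgfr1* and *Fgfr2* split, the first 2.96-fold higher (2.08 to 4.32) in osteoblasts and the second 7.15-fold (4.61 to 11.5) in marrow stromal cells. Of 3 tested regulators of osteoclasts, *Tnfsf11* (RANKL, which triggers osteoclast formation) was in 22 of 42 marrow stromal cells and 1 of 23 osteoblasts, with 45 UMIs and 1, and *Csf1* was 14.8-fold higher (7.94 to 30.6) in the marrow stromal cells. *Efnb2* lay within 2-fold. Of 8 chemokine and inflammation genes, 7 were higher in the marrow stromal cells (median −3.33, or −4.05 with 4 genes at their bound).

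**Figure D4:**
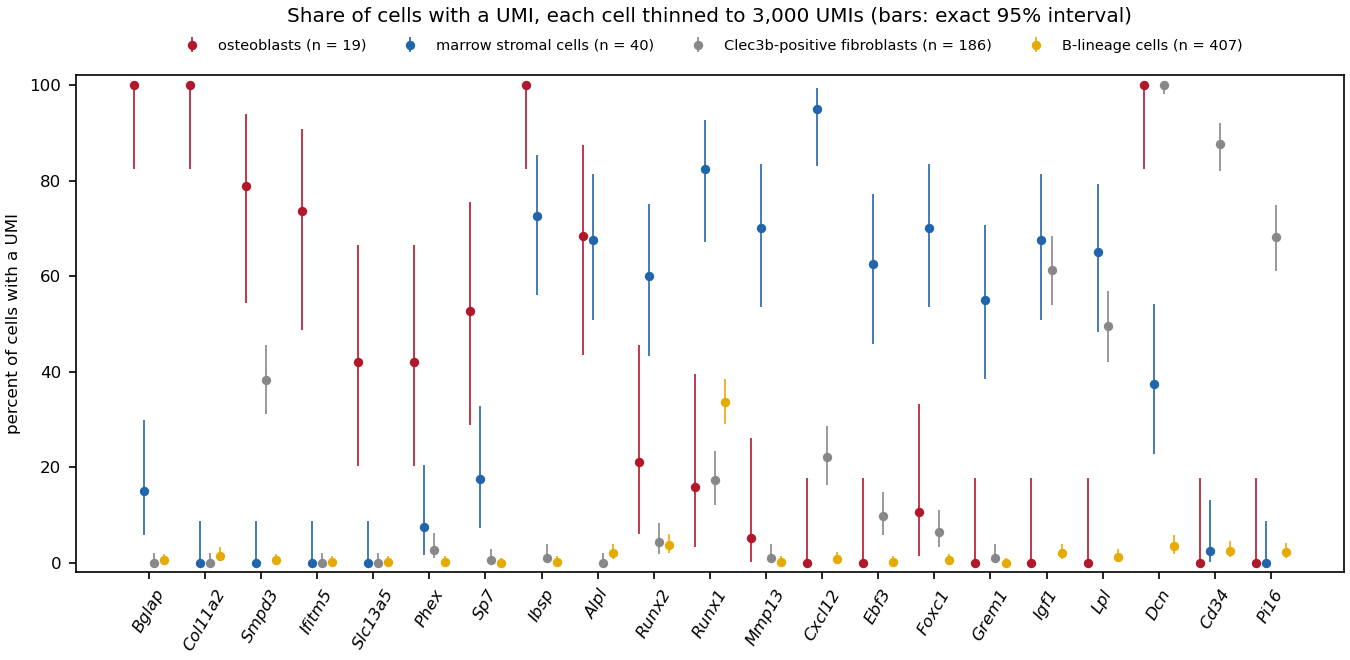
Percent of cells with a UMI of 21 genes after every cell was thinned to 3000 UMIs, with exact 95% intervals, in 19 osteoblasts, 40 marrow stromal cells, 186 *Clec3b*-positive fibroblasts and 407 B-lineage cells. *Alpl* and *Ibsp* are high in both member groups and near 0 in the others, *Pi16* and *Cd34* are high in the fibroblasts alone, and *Dcn* is at 100% in osteoblasts and fibroblasts.

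In droplets, RNA from broken cells also gives UMIs. As a measure of it, callus cells of the B lineage, which should lack stromal genes, were thinned alike (407 cells, 248 shallower ones left out, median depth of the 407 before thinning 5940 UMIs, against 27147 in the 19 osteoblasts and 7611 in the 40 marrow stromal cells). In these *Bglap* was in 0.491%, *Ibsp* in 0.246%, *Cxcl12* in 0.737%, *Lpl* in 1.23%, *Mmp13* in 0.246%, *Alpl* in 1.97%, *Runx2* in 3.7% and *Dcn* in 3.44%, all below the member group where each gene was high. *Apoe* was in 13.0%. *Runx1* and *Ebf1*, in 33.7% and 92.1%, are genes of blood and B cells themselves, so these shares give no background. Thinning left out 4 osteoblasts, 2 marrow stromal cells and 24 fibroblasts. Unthinned shares were higher for some genes (*Runx2* in 78.3% of osteoblasts and 76.2% of marrow stromal cells, *Cxcl12* in 17.4% of osteoblasts). They were not higher for all, as *Mmp13* was in 69.0% of marrow stromal cells before thinning and 70.0% after it.

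The osteoblasts were not uniform in their osteocalcin. In the 18 with at least 15890 UMIs, *Bglap* ran from 57.0 through 545 to 1238 per 10000 UMIs, while *Col1a1* ran from 720 through 1359 to 1967. Across these 18 cells *Bglap* went with *Bglap2* (Spearman's rho 0.96) and against *Col1a2* (−0.67), *Col1a1* (−0.55), *Lum* (−0.66), *Cthrc1* (−0.66), *Smpd3* (−0.51) and *Ifitm5* (−0.49), and with *Car3* (0.59) and *Phex* (0.55). *Lum*, *Cthrc1*, *Car3* and *Phex* were picked after values were seen. Its rho with UMIs per cell was −0.10. These are descriptions over cells of 1 library, and shares of a cell's UMIs are tied to each other, since a gene with a large share of the UMIs lowers the rest. *Ifitm5* was in all 18, at 2.72, 7.08 and 17.3 per 10000 UMIs, and in 1 of the 5 shallow osteoblasts.

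The marrow stromal cells fell into a part rich and a part poor in *Lpl*, and 15 of the 20 poor cells still carried it. Ordered by *Lpl*, 22 cells had at least 28 per 10000 UMIs and 20 had at most 10.1, with none between, and the limit of 20 was set after the values were seen. *Spp1*, *Mmp13* and *Wif1* were also chosen after values were seen. The *Lpl*-rich cells had a median of 3.76 *Ibsp* per 10000 UMIs (highest 35.4), 0 *Spp1* and 1.11 *Mmp13*, and none carried *Bglap*. The *Lpl*-poor cells had medians of 42.3 *Ibsp* (highest 419), 16.8 *Spp1* and 45.8 *Mmp13*, and 9 of 20 carried *Bglap*. So *Bglap* was found among the *Lpl*-poor cells, and *Ibsp*, *Spp1* and *Mmp13* were higher there, with an overlap. Other matrix genes varied in this respect. The medians in the *Lpl*-rich and *Lpl*-poor cells were 42.4 and 36.6 for *Sparc*, 20.4 and 22.9 for *Col1a2*, 3.07 and 8.98 for *Col1a1*, 2.97 and 8.15 for *Alpl*, 20.2 and 35.1 for *Tnc* and 0 and 2.38 for *Dcn*, and *Phex* was in 3 cells of each. Niche genes went with *Lpl*. *Cxcl12* had a median of 193 (99.8 to 298) in the *Lpl*-rich and 55.0 (0.290 to 321) in the *Lpl*-poor cells, *Adipoq* 31.8 and 7.72, *Kitl* 18.7 and 4.48 and *Cebpa* 3.99 and 0.577. *Wif1* went the other way, at 1.46 and 9.94, as did *Kcnk2*, at 0 and 4.89.

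Across the 42 marrow stromal cells the rho of *Lpl* was −0.79 with *Spp1*, −0.70 with *Ibsp*, −0.56 with *Mmp13* and 0.67 with *Adipoq*, and −0.48 with UMIs per cell, so the *Lpl*-poor cells were also the deeper ones. Depth's part in the pattern was not tested. In the 34 cells with all 4 rule genes the values were −0.84 with *Spp1*, −0.74 with *Ibsp* and −0.43 with UMIs per cell. These are descriptions of cells from 1 library.

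The 20 *Lpl*-poor cells were unlike each other. In 6 of them *Spp1* was at 386, 1272 and 1771 per 10000 UMIs (lowest, median and highest), with *Ibsp* at 35.3, 63.6 and 419 and *Mmp13* at 22.7, 80.5 and 148. All 6 carried *Runx2* and *Sp7*, 5 carried *Bglap* and 4 *Dmp1*, and their *Cxcl12* was low, at 1.42, 16.4 and 39.1. Thus these cells carried osteogenic transcripts beside low niche genes, and their highest share of *Bglap* and *Bglap2* was 0.192%, against 0.561% in the nearest osteoblast. In 12 others *Cxcl12* was at 25.3, 148 and 321 and *Ibsp* at 1.81, 36.5 and 101, with *Mmp13* at 2.45, 36.4 and 165, *Wif1* at 7.36, 11.2 and 31.9 and a *Kcnk2* median of 10.2. All 12 thus carried *Cxcl12*, *Ibsp* and *Mmp13* together. Their median *Cxcl12* was below the 193 of the *Lpl*-rich cells, as were their medians of *Adipoq* (16.4 against 31.8) and *Kitl* (8.62 against 18.7). The last 2 cells met the rule with 2 niche genes each. One was the deepest marrow stromal cell, with 34466 UMIs and all 52 *Acan* UMIs of the group, and the other had 112 UMIs of *Rgs5*, a pericyte gene, in 5291.

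**Figure D5:**
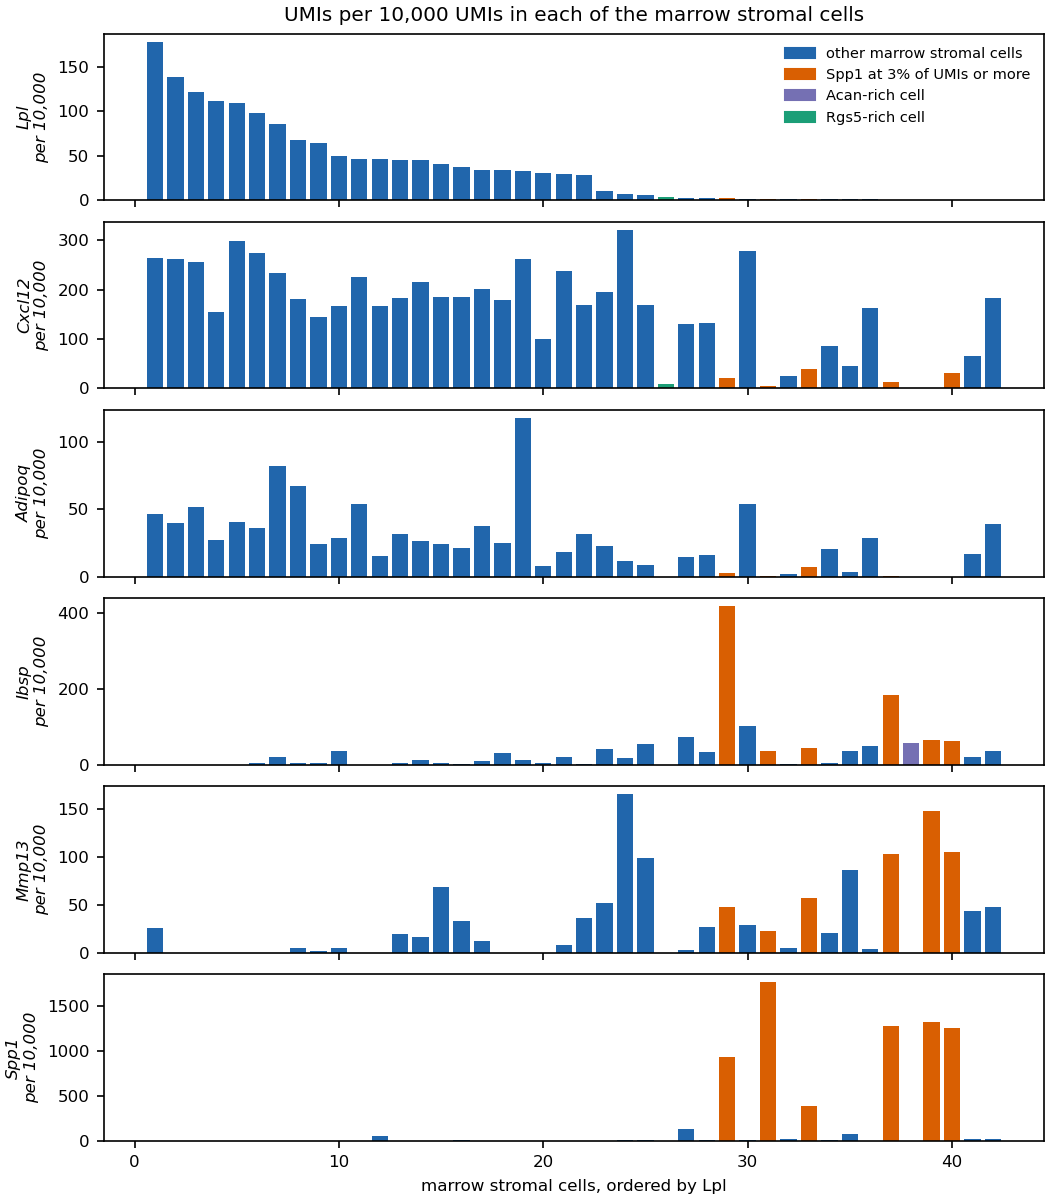
UMIs per 10000 UMIs of 6 genes in each of the 42 marrow stromal cells, ordered by *Lpl* from left to right. The 22 *Lpl*-rich cells have high *Cxcl12* and *Adipoq* and little *Spp1*; the 6 orange cells with *Spp1* at 3% of UMIs or more have low *Cxcl12* and high *Ibsp* and *Mmp13*, and 12 other *Lpl*-poor cells have *Cxcl12*, *Ibsp* and *Mmp13* together.

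Several genes of universal fibroblasts that the rule did not use were at or near 0 in both groups. *Pi16*, *Dpp4* and *Mfap5*, genes of universal fibroblasts, had 0 UMIs in both groups and 1455, 279 and 2063 CPM in the fibroblasts, and *Ly6a* (Sca1) had 0 and 2 UMIs against 1735 CPM. After thinning *Cd34* was in 0 of 19 osteoblasts, which at 3 counts allows 15.8% of cells with a UMI at this depth, in 2.50% (0.0633 to 13.2%) of marrow stromal cells and in 87.6% (82.0 to 92.0%) of fibroblasts. *Clec3b* itself was 0 in the members by the rule. Of the 6 tested genes of that list, 4 were higher in the osteoblasts (*Dcn*, *Gsn*, *Smoc2* and *Col15a1*), 1 in the marrow stromal cells (*Fbn1*) and *Pdgfra* lay within 2-fold (median 1.57). The shares of all genes were 4.73% and 35.6%.

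Genes induced by dissociation were near even, with 19 of 23 tested within 2-fold, 2 higher in the osteoblasts and 2 in the marrow stromal cells (median −0.40, or 0.15 with the 4 rule genes out of the denominator). The shares of all genes were 4.73% and 35.6%. *Atf3* and *Klf4* were higher in the osteoblasts and *Nr4a1* and *Hspb1* in the marrow stromal cells, the last going from −2.45 to −0.13 on the log2 scale without cells carrying 3 markers of another cell type. *Atf3* was in 11 osteoblasts and 1 marrow stromal cell, with 169 UMIs and 1, and in 49.5% of thinned fibroblasts. None of the 12 proliferation genes reached 20 UMIs, and *Mki67* was in 0 of 19 and 0 of 40 thinned members, against 35.9% of the B-lineage cells.

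Markers of other cell types were looked at as whole lists. Counts of genes called are to be read against the 35.6% of all genes higher in the marrow stromal cells and 4.73% in the osteoblasts. The 7 T and NK cell genes had 0 UMIs in both groups, as did the B cell genes *Cd79a*, *Cd79b* and *Ms4a1*, and the B cell list summed to 10.9 CPM in osteoblasts and 14.4 in marrow stromal cells, led by *Igkc*. Endothelial genes gave 1 UMI (1 of 8 genes) in the osteoblasts and 52 (all 8, 150 CPM, led by *Cdh5* with 12) in the marrow stromal cells, where 3 cells carried at least 3 of the 8. Without those 3 cells 1789 genes were higher in the marrow stromal cells. Perivascular genes summed to 87.5 CPM (5 of 10 genes, led by *Cspg4*, with *Rgs5*, *Acta2*, *Myh11*, *Mcam* and *Tagln* at 0) and 753 CPM (10 of 10, led by *Rgs5*), 3 of 4 tested being higher in the marrow stromal cells. A single cell held 112 of the 113 *Rgs5* UMIs there. Over the alternatives the log2 ratio of *Rgs5* went from −5.07 to as high as 0, and the list median from −3.05 to as high as −1.05. The osteoclast list summed to 264 and 254 CPM, mostly *Ctsk* (136 of 145 and 67 of 88 UMIs), with *Dcstamp*, *Ocstamp* and *Calcr* at 0 in both.

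Blood genes were present at a low level. The counts of genes here stand beside 35.6% of all genes higher in the marrow stromal cells and 4.73% in the osteoblasts. Macrophage genes summed to 34.6 and 182 CPM (4 and 5 of 8 genes), led by *Fcer1g*, with *Csf1r* and *Itgam* at 0 in both, and the tested gene, *Fcer1g*, was higher in the marrow stromal cells, with 78.0% of its UMIs there in 1 cell. Neutrophil genes summed to 190 and 323 CPM, led by *S100a9*, with 1 of 3 tested genes higher in the marrow stromal cells, and erythroid genes to 89.4 and 352 CPM, led by *Hbb-bs*, with all 3 tested higher there and *Alas2* at 0 in both. At least 3 of the neutrophil genes were in 11 of 23 osteoblasts and 10 of 42 marrow stromal cells, and at least 3 of the erythroid genes in 4 and 10. In the B-lineage cells of the same library the neutrophil and erythroid sums were 14363 and 10735 CPM. Megakaryocyte genes gave 1 and 3 UMIs, with *Ppbp* and *Gp9* at 0 in both. Muscle genes summed to 102 and 251 CPM, led by *Acta1* and *Tnnc2*, with 1 of 4 tested higher in the marrow stromal cells. Chondrocyte genes summed to 6021 and 776 CPM, nearly all *Col11a1* in the osteoblasts, with *Col10a1*, *Matn1*, *Matn3* and *Cytl1* at 0 in both, 2 of 5 tested genes higher in the osteoblasts (*Col11a1* and *Col2a1*, the latter in 6 cells with 67.3% of its UMIs in 1) and 3 in the marrow stromal cells. Among the 3 was *Acan*, with all 52 of its UMIs there in 1 cell. Over the alternatives its log2 ratio turned from −3.55 to as high as 0.68, and the list median from −1.49 to as high as 0.48. Tenocyte genes summed to 54.7 and 113 CPM, with *Cilp* and *Kera* at 0 in both and 1 of 2 tested higher in the marrow stromal cells (*Fmod*, 92.3% of it in 1 cell). Doublets were not removed in the values given. With the 87 callus cells of highest Scrublet score left out, 5 of them marrow stromal cells and none osteoblasts, 36 of 259 named log2 ratios moved beyond their counting error and 223 did not. Scrublet marked only 4 of 3295 callus cells and cannot be taken as working here. Its scores therefore cannot show which members are doublets, and the effect of doublets was not tested. The part of other cells' RNA in these differences was not tested.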

How the data were processed

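The authors ran Cell Ranger (6.0.0 in the matrix headers, mm10 in the submitters' notes) and deposited UMI counts, as raw whole numbers, for 3987 callus cells (36714322 UMIs) and 1872 intact cells (12112002 UMIs). The study names Seurat for its own analysis. No column belonged to another sample. The libraries share 1 barcode and no member has it. Members, gene lists and thresholds were chosen with earlier results of these data known.

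Counts were summed per group and scaled to CPM, and 10 CPM were added for ratios. Exact Poisson and Clopper-Pearson intervals are at 95%. For thinning, percentile 10 of member depth was rounded down to a step of 500, giving 3000 UMIs (seed 0). Named genes are the markers, the rule genes, members of 30 hand-written lists with 20 UMIs, and the 12 highest and 12 lowest ratios among genes with at least 50 UMIs, found in at least 25% of the higher group's cells with no cell above 25% of its UMIs, without mitochondrial, ribosomal and predicted genes. Genes outside this rule (*Xist*, *Tnc*, *Cthrc1*, *Car3*) were chosen after values were seen. Of 32285 identifiers, 32158 (99.6%) were in the GENCODE annotation of GRCm38. Scrublet marked 4 of 3295 cells (0.121%), which cannot be taken as working, so no doublets were removed. The ratio was tried on simulated counts in which all cells of a group shared the same profile. Differences between cells of a group, which moved several ratios here, were not simulated. Of the alternatives tried, 5 were added after seeing the data. Tools were python 3.11.15, numpy 2.4.6, scipy 1.17.1, pandas 2.3.3, scanpy 1.11.5, matplotlib 3.10.9 and biopython 1.88.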

Additional observations from a re-analysis of the deposited data

How the results depend on the processing

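With 1 library per condition and 65 cells, a gene at 0 UMIs in the osteoblasts can still be at 5.47 CPM or less in them, and counts of genes moved with the choice of cells and of scale. The 23 osteoblasts and 42 marrow stromal cells became 11 and 22 when cells with at least 3 markers of another cell type were left out. Then 864 of 2147 tested genes were higher in the marrow stromal cells. The types were endothelial, osteoclast, macrophage, neutrophil, B, T and NK and muscle cells. Erythroid, megakaryocyte, perivascular, chondrocyte, tenocyte and universal fibroblast genes were not used. Neutrophil genes marked 11 osteoblasts and 10 marrow stromal cells, and muscle genes 6 and 10. At least 50 UMIs per gene left 155 genes higher in the osteoblasts and 783 in the marrow stromal cells, since 2416 genes were tested, and the 4 rule genes out of the denominator gave 472 and 1040. Across the other alternatives the counts ranged within 1.5 times of those reported.

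Of 169 named genes at least 2-fold apart as reported, 7 turned sign under at least 1 alternative, and of 90 within 2-fold, among them *Ibsp* and *Dmp1*, 46 did. The log2 ratios of the 7, and of the lists whose reported median was at least 2-fold from even, were as follows. Asking for at least 3 niche genes gave 0.65 for *Fmod*, 0.87 for *Ptgs2* and 0.45 for *Acan*, and medians of 0.56 for small proteoglycans and 0.45 for chondrocyte genes. Without the deepest member of each group these were 0.77, 0.98, 0.48, 0.57 and 0.48, without the *Rgs5*-rich and *Acan*-rich cells 0.68, 0.89, 0.45, 0.58 and 0.45, and with all 4 niche genes asked for 0.54, 1.30, 0.45, 0.47 and 0.45. Without cells carrying 3 markers of another type *Fam20c* was 1.57, *Col16a1* 0.22, *Dkk3* 0.062, *Id1* 1.76 and *Acan* 0.68, *Col2a1* lost its call at 0.37, and the medians of collagens, small proteoglycans and chondrocyte genes 0.22, 0.16 and 0.37. With the mean of per-cell CPM *Col16a1* was 0.0071, *Id1* 0.093 and the collagen median 0.0071, and without the *Spp1*-rich members *Fam20c* was 1.68. Lists nearer to even also turned sign, with highest medians of 2.72 for bone matrix, 1.29 for tenocyte genes, 0.17 for osteogenic factors and 0.16 for dissociation genes and a lowest of −0.01 for osteoclast markers. With osteocalcin at 2% or more *Col5a1* (0.88), *Kdelr2* (0.92) and *Sec24d* (0.82) lost their call. The *Spp1*, the endothelial, the *Rgs5* and *Acan*, the shallow osteoblast and the all-4-gene alternatives were chosen after seeing the data. Over all alternatives, 20 ratios of genes at least 2-fold apart turned sign, as did 122 of genes within 2-fold. No paired analysis was possible because each condition has 1 library and no result comes from a test.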

Other observations

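Cells with niche genes were also present outside the members. Among filtered callus cells, 117 carried at least 2 of *Lepr*, *Cxcl12*, *Adipoq* and *Kitl* without being members, of which 101 had fewer than 3 UMIs of type I collagen, 14 had *Clec3b* and 12 had more than 1 UMI of *Ptprc*. The 92 that failed on collagen alone had a median of 4445.5 UMIs and a median of 21.4 *Cxcl12* UMIs per 10000, and 1 of them carried all 4 genes and 4 carried *Lpl*. Another 5 cells met the osteocalcin share but not the rule, 4 for *Ptprc* and 1 for *Clec3b*. *Xist*, named after its values were seen, had 332 CPM in the osteoblasts, 1495 in the marrow stromal cells and 1041 in the fibroblasts.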
